A study of Mus musculus with 2 samples.

Results

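This report concerns 10 mouse genes for lysosomal proteases and their closest relatives in function: Ctsa, Scpep1, Tpp1, Ctsd, Ctsb, Ctsl, Ctss, Ctsz, Ctsh and Lgmn. They were taken by name, for what their proteins do, although earlier results of these data were known when they were chosen. All 10 were found among 21482 protein-coding genes placed on mm10. Binding of the transcription factor USF1 was measured by ChIP-seq, in which DNA bound by the factor is pulled down with an antibody and sequenced. The cells were CH12.LX, an immortalised mouse B-cell lymphoma line of strain B10.H-2aH-4bp/Wts, untreated as far as the labels say. There was 1 group of 2 biological replicates of this single line, so every comparison is between genes, sites or replicates. Control libraries were not used here, and sequencing depth is unknown because the lists carry no read totals.

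Lysosomal proteases are made as inactive precursors, carried to the lysosome and activated in its acid lumen, where they digest proteins delivered by endocytosis and autophagy. Cathepsins B, H, L, S and Z and legumain use a catalytic cysteine, cathepsin D an aspartate, and cathepsin A, Scpep1 and tripeptidyl peptidase 1 a serine. In B cells some of them trim antigens, and cathepsin S removes the invariant chain from MHC class II molecules. USF1 is a basic helix-loop-helix leucine zipper factor that recognises the E-box CACGTG. The related factor TFEB, a master regulator of lysosomal genes, recognises an element with the same core.

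The sequences under the USF1 summits are shown because the kind and number of E-boxes differed among these genes. Each stretch below is read from the NCBIM37 genome (mm9) on the gene's own strand, 5′ to 3′, within 50 bp of the point of highest signal in an mm9 peak. Capitals mark CACGTG, called canonical here, and CACATG or its reverse complement CATGTG, called CA-centred. Where a window ran into annotated untranslated exons, it was shortened. The peaks at Ctsa, Ctsd and Ctsb held the canonical form. The shortened Ctsa stretch ends before a CA-centred copy that also lay in its window.

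Ctsa, second 5′ end, chr2:164659257-164659286, plus strand: ctgtCACGTGatgcagatgctCACGTGacc

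Ctsd, promoter, chr7:149573813-149573842, minus strand: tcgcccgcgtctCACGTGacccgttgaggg

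Ctsb, promoter, chr14:63741243-63741331, plus strand: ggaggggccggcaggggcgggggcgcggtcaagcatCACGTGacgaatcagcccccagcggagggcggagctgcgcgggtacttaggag

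Lgmn, first intron, chr12:103677301-103677401, minus strand: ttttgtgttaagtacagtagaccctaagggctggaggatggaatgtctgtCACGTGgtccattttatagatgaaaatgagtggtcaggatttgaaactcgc

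The peaks at Tpp1 and Ctss, and the innermost of 3 at Ctsb, held only the CA-centred form, and they are shown because 2 of the 3 repeat it.

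Tpp1, promoter, chr7:112900709-112900792, minus strand: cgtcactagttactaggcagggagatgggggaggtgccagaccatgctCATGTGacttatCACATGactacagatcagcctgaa

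Ctsb, first intron, chr14:63749623-63749723, plus strand: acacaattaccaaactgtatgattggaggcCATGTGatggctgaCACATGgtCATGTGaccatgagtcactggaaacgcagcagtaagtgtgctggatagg

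Ctss, promoter, chr3:95330686-95330737, plus strand: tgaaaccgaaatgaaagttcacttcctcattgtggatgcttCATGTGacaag

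The promoter peak of Scpep1 held neither form, as did 30.9% of mm9 promoter peaks. Of the Scpep1 peaks in intron 2, the weaker, shown here, held the canonical form and the stronger only the CA-centred one.

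Scpep1, promoter, chr11:88816750-88816819, minus strand: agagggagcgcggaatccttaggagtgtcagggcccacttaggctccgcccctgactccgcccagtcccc

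Scpep1, second intron, chr11:88811225-88811325, minus strand: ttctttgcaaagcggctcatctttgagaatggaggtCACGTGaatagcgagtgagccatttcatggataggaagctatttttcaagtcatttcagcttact

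Of the 10 genes, 7 had a USF1 summit in the optimal mm10 list within 5 kb of a 5′ end or inside the gene, where 22.5% of all protein-coding genes did. All 7 had one within 1 kb of a 5′ end, where 12.5% of all genes did. The 7 were Ctsa, Tpp1, Ctsb, Ctsd, Scpep1, Lgmn and Ctss. Ctsl, Ctsz and Ctsh had none. The 7 genes carried 11 optimal summits, and all 11 were also in the conservative list, in which 7 of the 10 genes had a summit, against 21.2% of all genes. In the separate mm9 list the same rule found 12 summits at 7 of the 10 genes, against 25.9% of all genes with an mm9 annotation. Signal, the value that the authors' peak caller gave to each region, is on a scale that is not stated and is compared here only within a list. The strongest summit of each bound protease gene had a median signal of 447 (range 75.5 to 543), against 101.4 over all 4840 genes bound under the 5 kb rule. Within 1 kb the medians were 447 for these genes and 131 for all 2680 bound genes.

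**Figure D1:**
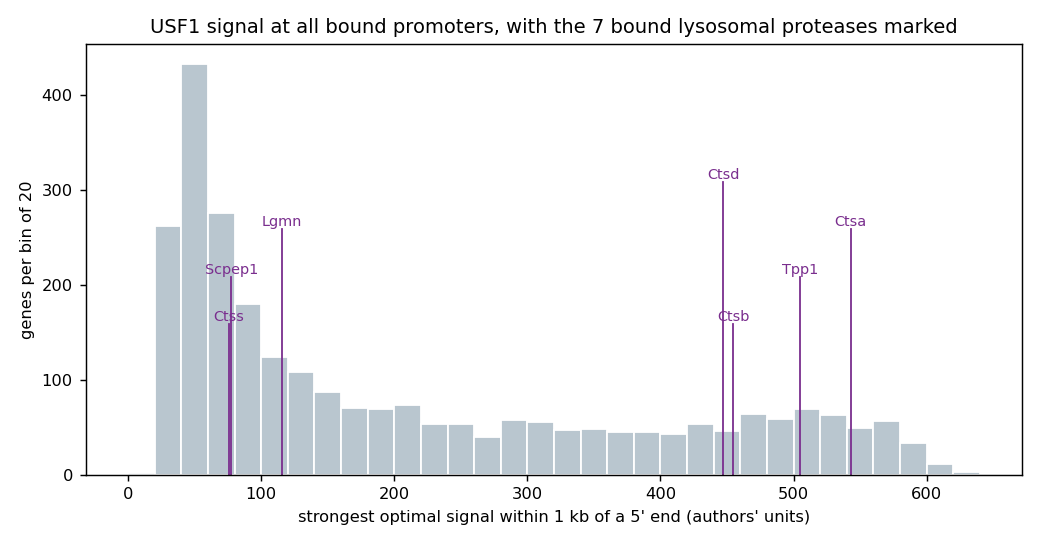
Strongest optimal signal (authors' units) within 1 kb of a 5′ end, as the number of genes in bins of 20, for all 2680 bound genes (bars), with the 7 bound protease genes as vertical lines whose height has no meaning. Ctsd, Ctsb, Tpp1 and Ctsa lie between 447 and 543, whereas Ctss, Scpep1 and Lgmn lie between 75.5 and 116.

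The signals fell into a high and a low set, as the plot of all bound promoters shows. Ctsa ranked 150 among the 2680 bound genes, Tpp1 ranked 273, Ctsb 420 and Ctsd 436. Lgmn ranked 1424, Scpep1 1727 and Ctss 1751, so these lay below the median of all bound promoters. No protease gene had a promoter signal between 116 and 447.

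Of the 3 serine protease genes, Ctsa and Tpp1 were in the high set and Scpep1 in the low one. Ctsa encodes cathepsin A, a carboxypeptidase that also protects beta-galactosidase and neuraminidase in a complex. Its optimal summit had a signal of 543 (rank 131 of 8108), with 262 in replicate 1 and 279 in replicate 2. The gene lies on the plus strand of mm10 chromosome 2 from 164832872 to 164841032 and has 2 annotated 5′ ends. The summit lay 900 bp inside the outer one and 1 bp from the inner one. Neurl2, which encodes a neuralized E3 ligase adaptor, has a 5′ end 176 bp from the same summit, and the region cannot be assigned to one gene over the other from these data. The mm9 peak there had a signal of 2291 (rank 116 of 10624) and held 2 canonical E-boxes 17 bp apart, start to start, with a CA-centred one 16 bp further on. Its summit fell in exon 2 of the longest transcript. In the RefSeq promoter sequence of GRCm38.p6 the canonical pair stood 8.5 bp on either side of the mm10 summit.

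Tpp1 encodes tripeptidyl peptidase 1, which removes tripeptides from the ends of proteins and whose loss in humans causes late-infantile neuronal ceroid lipofuscinosis. Its promoter summit had an optimal signal of 505 (rank 261), with 236 in replicate 1 and 273 in replicate 2. The gene lies on the minus strand of mm10 chromosome 7 from 105744811 to 105752282, and the summit lay 1 bp from one of its 5′ ends. No CACGTG copy lay within 1 kb of its mm9 5′ end. The summit held instead 2 CA-centred copies, 12 bp apart and both reading TCACATGA, with centres 0.5 and 12.5 bp from it. With a signal of 1968 it ranked 9 among the 3198 mm9 peaks that had only CA-centred E-boxes, and 6 among the 383 of them within 1 kb of a 5′ end. The median signal of those 383 was 76.4, against 216 for 1748 promoter peaks with the canonical form. Tpp1 therefore stood with the strong canonical promoters in signal, although its E-boxes were of the kind whose promoter peaks were mostly weaker.

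Scpep1, which encodes a serine carboxypeptidase named for its induction by retinoids, had 3 optimal summits, and the strongest was not at its promoter. The gene lies on the minus strand of mm10 chromosome 11 from 88924020 to 88955442. A summit 3117 bp into the gene had a signal of 143, with 64.3 in replicate 1 and 79.8 in replicate 2. The promoter summit, 8 bp upstream of the 5′ end, had 77.6, with 36.7 in replicate 1 and 40.1 in replicate 2. The remaining summit, 5481 bp into the gene, had 65.7, with 21.1 in replicate 1 and 43.3 in replicate 2. In mm9 both inner sites lay in intron 2. The inner canonical site shown above read TCACGTGA. At the middle site the only E-box within 50 bp was CA-centred and lay 39.5 bp from the summit. Chromosome 11 held 11.1% of optimal regions, 12.9% of replicate 1 regions and 13.2% of replicate 2 regions, against 7.41% of protein-coding genes. Its part in the number of sites at Scpep1 was not tested.

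Ctsd, the aspartic protease cathepsin D, had a promoter summit with a signal of 447 (rank 450), 215 in replicate 1 and 232 in replicate 2. It spans 142375910 to 142387827 on the minus strand of mm10 chromosome 7, with the summit 93 bp upstream of the 5′ end. This region was the widest of the 11, at 387 bp, where the median over all optimal regions was 300 bp. A TCACGTGA copy lay 4.5 bp from the mm9 summit. The GRCm38.p6 promoter sequence of Ctsd held that copy 2.5 bp from the mm10 summit and another canonical copy 149.5 bp upstream of that summit, inside the same region. That upstream copy, at chr7:149573960-149573989 of mm9 on the minus strand, had no summit of its own within 50 bp and is shown for its different flanks, CCACGTGA: tcttccttccccCACGTGacctgtatccag

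Ctsb had 3 summits, and each ranked among the strongest 14.9% of optimal regions. It encodes cathepsin B, which cuts within chains and also trims dipeptides from their carboxy ends. On mm10 it spans 63122462 to 63145923 of chromosome 14, plus strand. The promoter summit, 7 bp upstream of the 5′ end, had a signal of 454, with 222 in replicate 1 and 230 in replicate 2. The next, 1382 bp into the gene, had 302, with 126 in replicate 1 and 176 in replicate 2. The innermost, at 8379 bp, had 248, with 113 in replicate 1 and 132 in replicate 2. In mm9 the inner pair lay in intron 1. The site in between held a single canonical E-box (CCACGTGA) and the innermost held 3 CA-centred ones within 50 bp, spaced 14 and 8 bp apart. Windows with 3 or more E-boxes of either kind made up 2.11% of all mm9 peaks. Ctsb and Scpep1 were 2 of the 10 genes with 3 or more optimal summits under the 5 kb rule, against 1.42% of all genes. They span 23462 and 31423 bp, and longer genes can hold more summits under this rule. Ctss and Lgmn span 29620 and 45647 bp and had 1 summit each, and the part of gene length was not tested.

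**Figure D2:**
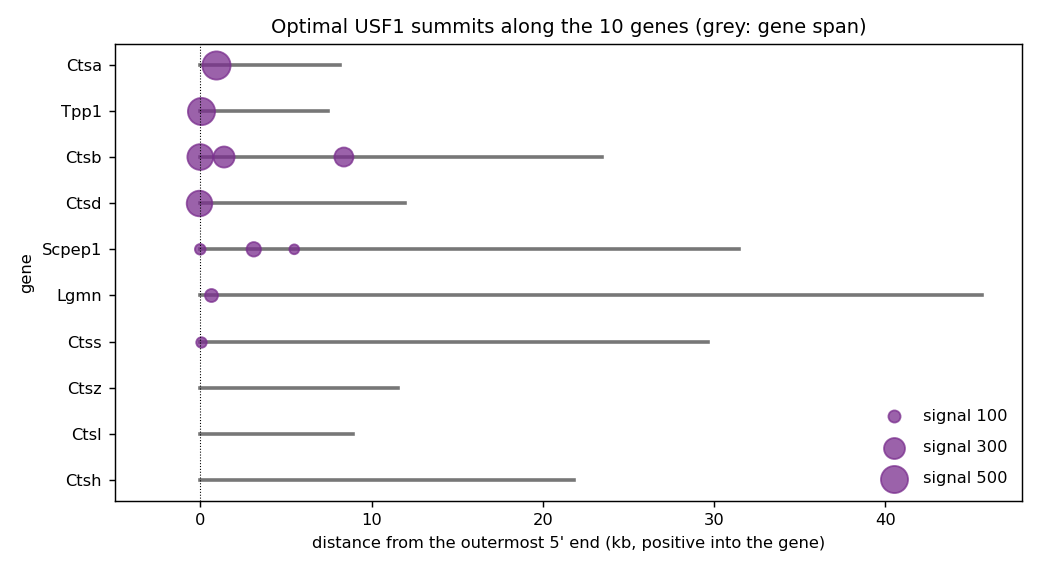
Optimal USF1 summits (circles, with area proportional to signal in the authors' units) along the 10 genes (grey lines, each as long as its mm10 span), by distance in kb from the outermost 5′ end. Ctsb and Scpep1 have 3 summits each, Ctsa, Tpp1, Ctsd, Lgmn and Ctss have 1, and Ctsz, Ctsl and Ctsh have none.

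Ctss, whose product cathepsin S clears the invariant chain in antigen-presenting cells, was in the low set of bound promoters. Its promoter summit had a signal of 75.5 (rank 3876 of 8108), with 34.1 in replicate 1 and 39.8 in replicate 2, close to the median of 72.2 over all optimal regions. Ctss lies on the plus strand of mm10 chromosome 3 from 95526786 to 95556405, with the summit 19 bp inside the 5′ end. The mm9 window held 1 CA-centred E-box, TCACATGA, 6.5 bp from the summit. With a signal of 89.5 it ranked 172 among 383 promoter peaks of that kind. Ctss and Tpp1 thus had the same 8 bases at the summit, once in Ctss and as a pair in Tpp1, with mm9 signals of 89.5 and 1968.

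Lgmn encodes legumain, which cuts after asparagine and helps to mature several cathepsins. Its summit had a signal of 116 (rank 2687), with 59.8 in replicate 1 and 56.0 in replicate 2, and was the only one of the 11 with a lower value in replicate 2. The gene lies on the minus strand of mm10 chromosome 12 from 102394082 to 102439728 and has 2 annotated 5′ ends. The summit lay 597 bp inside the outer one and 39 bp upstream of the inner one. In the mm9 annotation the same site fell in intron 1, 672 bp from the nearest 5′ end. Its canonical copy read CCACGTGA on one strand and TCACGTGG on the other, 2.5 bp from the summit.

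The other cysteine cathepsins had no optimal, conservative or mm9 summit under the 5 kb rule. Ctsz encodes cathepsin Z, a carboxypeptidase, and Ctsh encodes cathepsin H, an aminopeptidase. Ctsl encodes cathepsin L, an endopeptidase. In the relaxed list of 300000 regions from both replicates, which also holds background, the strongest region under the rule had a signal of 21.2 at Ctsz (rank 13377), 11.9 at Ctsh (rank 32893) and 8.62 at Ctsl (rank 77414). The Ctsz region of 21.2 lay 2556 bp upstream of the 5′ end, and both replicates had a region there, with signals of 12.1 in replicate 1 and 7.73 in replicate 2. At the Ctsz promoter replicate 2 had a region with a signal of 15.0, 75 bp inside the 5′ end, replicate 1 had none, and the list from both had one with 21.1. Ctsl had no region in the list of either replicate. Ctsh had none in replicate 2 and 1 in replicate 1, with a signal of 7.42. The Ctsh value was near the lowest of its list, 7.38. At Ctsz the upstream 12.1 lay above the replicate 1 list median of 10.8. The promoter 15.0 lay above the replicate 2 median of 8.45, whereas the upstream 7.73 lay below it. At neither of these Ctsz sites were both replicates above their list medians. None of these regions was in the optimal list, and the depth behind that is unknown.

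All 11 optimal regions were found in both replicates, as were 99.3% of all 8108 optimal regions, an overlap partly built into a list derived from the replicate lists. The log2 ratio of replicate 2 over replicate 1 had a median of 0.21 with an SD of 0.30 across the 11 regions, against a median of 0.18 and an SD of 0.50 over all optimal regions in both. It ranged from -0.10 at Lgmn to 1.04 at the innermost Scpep1 site. That Scpep1 site was the only one of the 11 with more than a 2-fold difference, which 7.20% of all optimal regions had. There the replicate 1 summit also lay 63 bp from the optimal one, where no other replicate summit lay more than 20 bp away. The 4 strong promoters ranked between 143 and 421 in replicate 1 and between 166 and 512 in replicate 2.

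**Figure D3:**
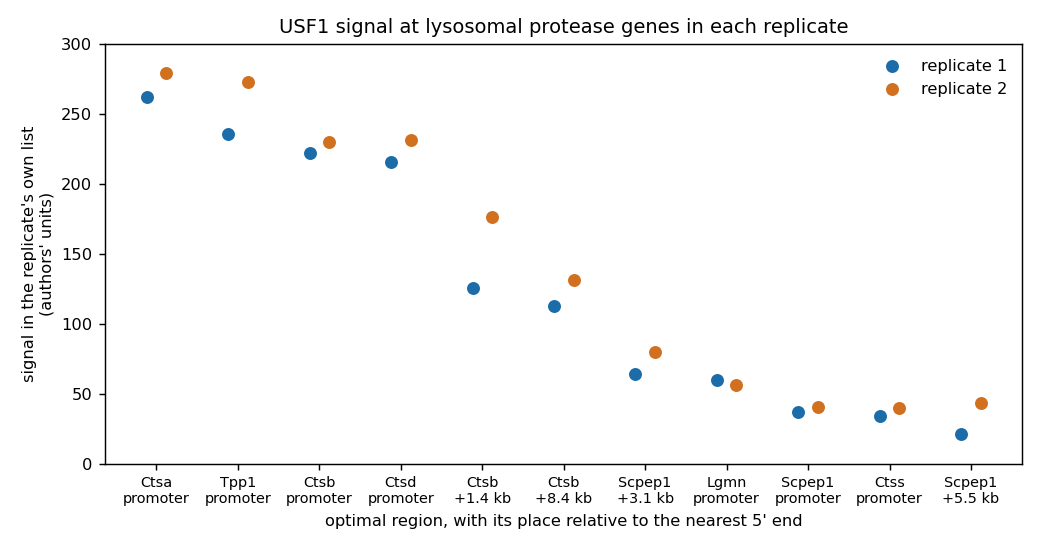
Signal (authors' units, linear axis from 0) of the overlapping region in each replicate's own list, for the 11 optimal regions in order of optimal signal. The Ctsa, Tpp1, Ctsb and Ctsd promoters lie between 215 and 279 in both replicates and above the other 7 regions, and at the last Scpep1 site replicate 2 (43.3) is over 2-fold above replicate 1 (21.1).

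The share of these genes with a canonical E-box was close to the background. Of the 7 bound genes, 4 had CACGTG within 50 bp of the strongest mm9 promoter summit, where 56.7% of 3082 mm9 promoter peaks did. Repeated E-boxes were the less common feature. Ctsa and Tpp1, the strongest pair, were 2 of the 7 with 2 or more E-boxes of either kind, against 7.3% of promoter peaks. Over all promoter peaks the median mm9 signal was 156 with 1 E-box, 381 with 2 and 525 with 3 or more (27 peaks). Over all mm9 peaks, far sites included, the same medians were 67.4, 68.7 and 70.7, so the gradient was seen at promoters. These medians pool both kinds of E-box, and by kind the promoter medians were 216 with the canonical form and 76.4 with only the CA-centred one. The part of number apart from kind was not tested. The Ctsd and Ctsb promoters, also in the high set, held 1 E-box each. The 12 mm9 peaks held 16 E-boxes within 50 bp of their summits, 8 canonical and 8 CA-centred. All 16 had their centre within 39.5 bp of the summit and 15 had it within 19.5 bp, in a window that allowed at most 50 bp. Outside that window, a further CA-centred copy at the middle Scpep1 site lay 93.5 bp from its summit.

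**Figure D4:**
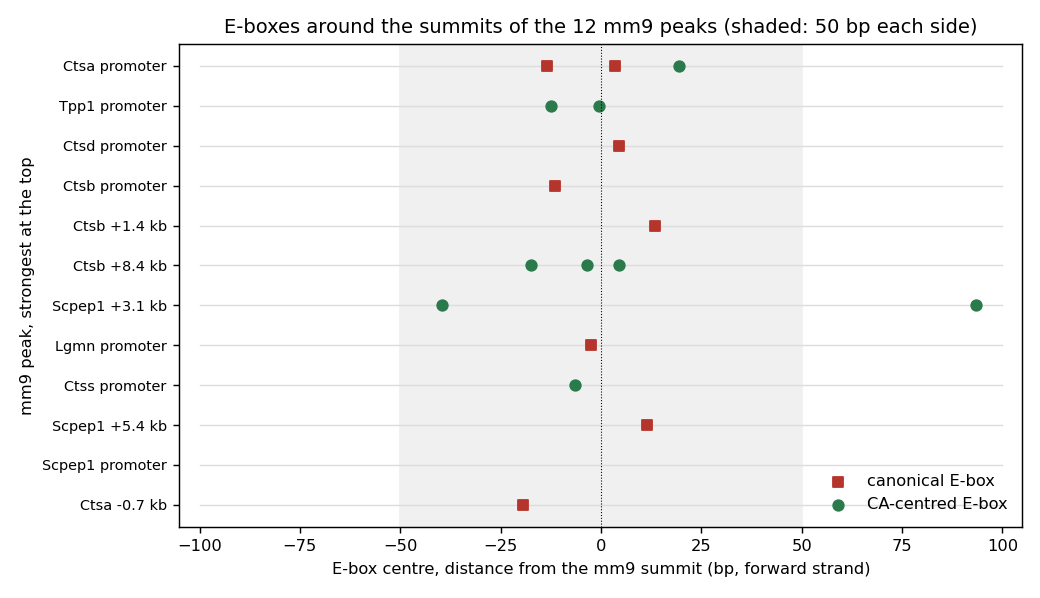
Centres of canonical (squares) and CA-centred (circles) E-boxes by distance in bp from the summit, on the forward strand, for the 12 mm9 peaks at these genes, strongest at the top. The Ctsa promoter has 3 E-boxes, the Tpp1 promoter 2 and the innermost Ctsb site 3, and the Scpep1 promoter has none.

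The bases beside the core were often the same. Of the 8 canonical copies at summits, 5 read TCACGTGA, namely the Ctsa pair and those of Ctsd, the Ctsb promoter and the innermost Scpep1 site. Of the 8 CA-centred copies, 4 read TCACATGA, the same flanks around the other core, and 2 of these were the Tpp1 pair. The share of this string among CA-centred copies at all peaks is not given here. Over both strands of all 9738 CACGTG copies within 1 kb of mm9 5′ ends, 54.0% of TCACGTGA copies (95% Wilson interval 50.2 to 57.7) had an mm9 summit within 50 bp, against 35.3% of CCACGTGA (32.8 to 37.8) and 14.5% of CCACGTGC (12.8 to 16.4). Taking all flanks together, 19.3% did. The protease genes had 12 such copies near their 5′ ends, of which 6 had a summit within 50 bp, including all 4 that read TCACGTGA. That is 4 of 6 copies with a summit at these genes, against 19.1% of the 1884 such copies at all genes. The Ctsa pair, counted as 2 of the 4, lay under 1 summit. These intervals cover counting error only. The element that TFEB recognises extends the core by 2 bases on each side. At 5 of the 7 canonical summits of these genes a copy matched it at 9 or more of its 10 bases, where 32.6% of all 5658 canonical mm9 peaks did. No copy at these genes matched all 10, where 10.4% of canonical peaks did.

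Summits were found both with and without a canonical copy near the start, and copies both with and without a summit. Of the 5 genes with such a copy within 1 kb of an mm9 5′ end, 4 had an mm9 summit within 1 kb, against 30.6% of all genes with a copy. Of the 5 without one, Tpp1, Ctss and Scpep1 had a summit and Ctsz and Ctsh did not, where 5.98% of all genes without a copy had a summit. Ctsl was the gene with copies and no summit. Its upstream copy, centred 447.5 bp before the mm9 5′ end, read CCACGTGC and is shown as an unbound counterpart, from chr13:64472047-64472076 on the minus strand: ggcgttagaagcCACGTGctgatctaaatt

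The Tpp1 and Ctss promoters, with CA-centred E-boxes, had the lowest CpG ratios of the 7. The ratio of observed to expected CpG, counted 500 bp to each side of the mm9 summit, was 0.256 at Tpp1 and 0.268 at Ctss. Only 6.36% of promoter peaks were at or below the Tpp1 value and 7.04% at or below the Ctss value. It was 0.413 at Lgmn, whose E-box is canonical, and 14.7% of promoter peaks were at or below that. It was 0.588 at Ctsa, 0.619 at Ctsd, 0.607 at Ctsb and 0.667 at Scpep1. The median was 0.719 over all promoter peaks and 0.537 over those with only CA-centred E-boxes.

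Other genes of the same pathway were counted with the same 1 kb limit. Of 12 other lysosomal or related proteases, 2 had an optimal summit within 1 kb, Dpp7 with a signal of 538 and Prcp with 159, which encode a dipeptidyl peptidase and a prolylcarboxypeptidase. The Prcp summit lay 369 bp from its own 5′ end and 33 bp from that of Ddias, and cannot be assigned to one over the other. Ctsc, which encodes the dipeptidyl peptidase that activates granule proteases, had no optimal summit and a weak mm9 peak with a signal of 47.6. None of 8 placental cathepsins, a rodent-specific cluster, was bound. Of 14 cystatins, the inhibitors of cysteine cathepsins, only Cstb was bound, with a signal of 295, and Cst3 was not. All these counts stand against the 12.5% of all genes given above, and in lists of 8 to 14 genes they lie near that share.

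Genes for partners and substrates were bound within 1 kb at 7 of 10, against 12.5% of all genes. The class II genes H2-DMb1, H2-Oa and H2-Ob were the unbound ones, although H2-Ob had a weak mm9 peak (signal 30.15) beyond 1 kb. Both enzymes that cathepsin A protects were among the bound genes, with signals of 435 at Glb1 (beta-galactosidase) and 319 at Neu1 (neuraminidase). Grn (progranulin) had 319 and Psap (prosaposin) 221. H2-DMa, which encodes a subunit of a class II peptide editor, had 471, but its summit lay 435 bp from its own 5′ end and 210 bp from that of Brd2, so the region cannot be assigned to one gene over the other. Ifi30, a lysosomal thiol reductase, had 116, and Cd74, which encodes the invariant chain that cathepsin S cuts, had 42.0. The H2-DMa summit had no mm9 counterpart under the rule, and neither did that of Prcp. Further genes of ceroid lipofuscinosis, the disease group to which Tpp1 belongs, were bound in part. Cln3 had a signal of 471 and Ppt1, which encodes a palmitoyl thioesterase, had 383. In contrast, Cln6, Mfsd8, Cln8, Dnajc5 and Kctd7 had no optimal summit under the 5 kb rule, and Atp13a2 had none within 1 kb.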

How the data were processed

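The deposited files are lists of regions, and per the deposited readme files the mm10 lists include a relaxed list for each replicate and one from both together, from which optimal and conservative lists were thresholded by IDR. A separate mm9 list came from both replicates' mm9 alignments. No source used here names the caller, aligner or thresholds. The deposited signal value of each region was used unchanged, and depth is unknown. The summit is the region's start plus the peak offset, in 1-based coordinates of the build named.

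In mm10, 5′ ends came from RefSeq GRCm38.p6 genes and promoters, with strand from Gencode vM1 for 3991 of 21482 genes; 21883 were listed. Promoter sequences were found for 8 of the 10 genes, not for Ctsb and Ctsh. In mm9, every protein-coding transcript of Gencode vM1 and the NCBIM37 genome were used. Regions were shared at an overlap of at least 1 bp. E-boxes were searched on both strands. No significance test was run, and counts are set beside those over all genes or peaks. Genes and lists were chosen with earlier results of these data known. All 10 genes are named, as are list genes bound within 1 kb and Ctsc, Cst3, Cstb, Cd74 and Ifi30, except for an item that is not reported here. Functions were checked on planted data, with Python 3.11.15, pandas 2.3.3 and SciPy 1.17.1.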

Additional observations from a re-analysis of the deposited data

How the results depend on the processing

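The counts of 7 bound genes were 7 in the conservative list, in the stronger 50% of the optimal list, within 500 bp, 2.5 kb, 5 kb or 10 kb, and with the strongest 8108 regions of either replicate alone. In all, 22 of 24 alternative values stayed within 1.5 times of the reported one, or within the spread between replicates for the median signal. The other 2 were that median, 447, taken from a single replicate's list, where it was 215 to 230. Signals reach 321 in replicate 1, 328 in replicate 2 and 640 in the list from both, so the values are not on one scale. With at least 50% of the optimal region covered, 10 of 11 regions were found in both replicates, since the replicate 1 region at the innermost Ctsb site covered 47.4% of it. The canonical E-box count was 4 with windows of 25, 50 or 100 bp. No paired analysis was possible because there was a single group. Depth is unknown, so weak binding at Ctsz, Ctsl and Ctsh may have gone undetected.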

Other observations

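Ctsa had a further weak site upstream of its outer 5′ end that the optimal list did not hold. In mm9 it was a peak with a signal of 64.0, centred 652 bp upstream, with a canonical E-box whose flanks read CCACGTGG, 19.5 bp from the summit. In mm10 the relaxed list from both replicates held a region there with a signal of 48.6 (rank 5844), replicate 1 one with 15.5 and replicate 2 one with 32.3.

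Motif strings of other factors were searched on both strands within 100 bp of the 12 mm9 summits, with strings chosen after the sequences were in hand. The PU.1 string GAGGAAGT, of a factor of myeloid and B cells, was found only at the Ctss promoter, and 3.13% of all mm9 peaks and 1.69% of promoter peaks held it. The AP-1 string TGACTCA was found at the innermost Ctsb site and the middle Scpep1 site, against 8.34% of all peaks. The GC box GGGCGG was found at 5 of the 12, against 20.2% of all peaks and 51.7% of promoter peaks. CCAAT was found at 1 of the 12, against 27.1% of all peaks. The string CACGCG was found only at the Scpep1 promoter, the peak with neither E-box, and 18.7% of promoter peaks held it. The strings for ETS factors, the cAMP response element and the octamer were found at none.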
